A study of Homo sapiens with 4 samples.

Results

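The G1 cyclins, the cyclin-dependent kinases (CDKs) they bind and the CDK inhibitors of the CIP/KIP family were measured in cells labelled HepG2, with and without a targeted TXNDC9 gene. The members were the 10 genes CCND1, CCND2, CCND3, CCNE1, CCNE2, CDK2, CDK4, CDK6, CDKN1A and CDKN1B, each taken by its symbol from a table of 57979 lines with values. They were chosen by name and role, with earlier results of these data known. Polyadenylated RNA was sequenced in 4 libraries. Of these, 2 were wild-type cells of HepG2, a cell line from a human liver tumour, grown in DMEM with fetal bovine serum, and 2 were HepG2 cells grown in the same way in which TXNDC9, a thioredoxin domain-containing protein, had been knocked out with CRISPR-Cas9. The knockout cells carried a lentiviral CRISPR vector with guide sequence to the first exon of TXNDC9. The labels of the wild-type libraries name no vector, although the study used cells with the vector alone as the control of another assay. The labels do not say whether the knockout line was a clone or a pool, or whether the 2 libraries of a group came from separate cultures, so the p-values measure the spread between libraries, which may be technical. The comparison asks which transcripts of the G1 machinery differed between the knockout and the wild-type cells.

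Before the members were compared, the libraries were checked against their labels. Levels are given in FPKM, the number of fragments scaled to transcript length and to the size of the library. TXNDC9 itself was 35.1 and 37.3 FPKM in wild-type cells and 21.9 and 27.6 FPKM in knockout cells. Its log2 fold change was -0.55 (SE 0.14, limma adjusted p = 0.0145, n = 2 per group), short of the threshold of 0.01 used below, and it was 0.12 when each library was rescaled to TPM, in which the values of a library sum to a fixed total. An edit in an exon need not lower the transcript, so this level does not test the edit. Of 9 hepatocyte markers, among them ALB, AFP, APOA1 and HNF4A, 0 were above 1 FPKM in any library, and their summed level was 0.446 and 0.733 FPKM in wild-type cells and 0.0479 and 0.174 FPKM in knockout cells, with 4 to 6 of the 9 at 0. These markers are usually abundant in HepG2 cells, so the libraries go against the labelled cell type in this respect. Of 8 markers of other cell types 2 or 3 were above 1 FPKM in each library, and they summed to 36.3 and 29.5 FPKM in wild-type cells and to 27.7 and 25.8 FPKM in knockout cells, most of it from the collagen gene COL1A1. These sums were lower in the knockout libraries, but CD68, a macrophage marker of the same list, was higher, at 3.38 and 5.16 FPKM in wild-type cells and 5.77 and 6.90 FPKM in knockout cells (log2 fold change 0.58, adjusted p = 0.0627, and 1.27 with an adjusted p of 0.00388 after a correction that removes from each library the trend of its values with transcript length and GC content). The part of these markers in the results was not tested. The sum of FPKM over all genes was 805816 and 971102 in wild-type cells but 535973 and 568279 after the knockout, so it moved with the group. The files hold no counts, so the depth is unknown, and no counting interval or detection floor is given.

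Cyclins of the D type rise with growth signals in G1 and bind CDK4 and CDK6, and cyclins of the E type bind CDK2 later in G1. These kinases phosphorylate the retinoblastoma protein, which releases E2F transcription factors and lets the cell enter S phase. The CIP/KIP inhibitors bind cyclin-CDK complexes, block CDK2 and also help D cyclins to assemble with their kinases. In liver cells D cyclins are induced when quiescent hepatocytes re-enter the cycle.

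In the knockout cells CCNE2, CDK2 and CDK6 rose and CDK4 fell, at an adjusted p under 0.01 across all tested genes, and CDK6 had the highest fold of the members. CDK6 was 1.98-fold higher and CCNE2 was 1.84-fold higher in the mean of 2 libraries, while CDK4 stood at 0.600 of its wild-type mean. The direction of CDK6 turned once fold changes were corrected for transcript length and GC content, and that of CCNE2, CDK2 and CDK4 did not turn, but each of the 3 missed the threshold under at least 1 scaling. CCNE2 and CDK4 missed it after that correction, CDK4 also in TPM, and CDK2 with median centring (0.43, adjusted p = 0.0198). Of the 10 members, 9 passed the filter of a mean above 1 FPKM, which CCND2 did not. With a fold of at least 2 and an adjusted p under 0.01, the call used for single genes, 0 of the 9 were called, against 29.5% of the 13246 genes tested (14.2% higher and 15.3% lower). At the same adjusted p and any fold 4 of 9 passed, 3 higher and 1 lower, against 50.8% of all tested genes (23.7% higher and 27.1% lower). The knockout and wild-type values did not overlap for 8 of the 9, against 86.1% of all tested genes. Read against this background, the members' counts were below or close to those of all genes. In bulk RNA, fewer cells that express a gene and less of its RNA per cell cannot be told apart. With either knockout library left out 0 members passed, and without wild-type replicate 1 or replicate 2 the number was 7 or 6.

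**Figure D1:**
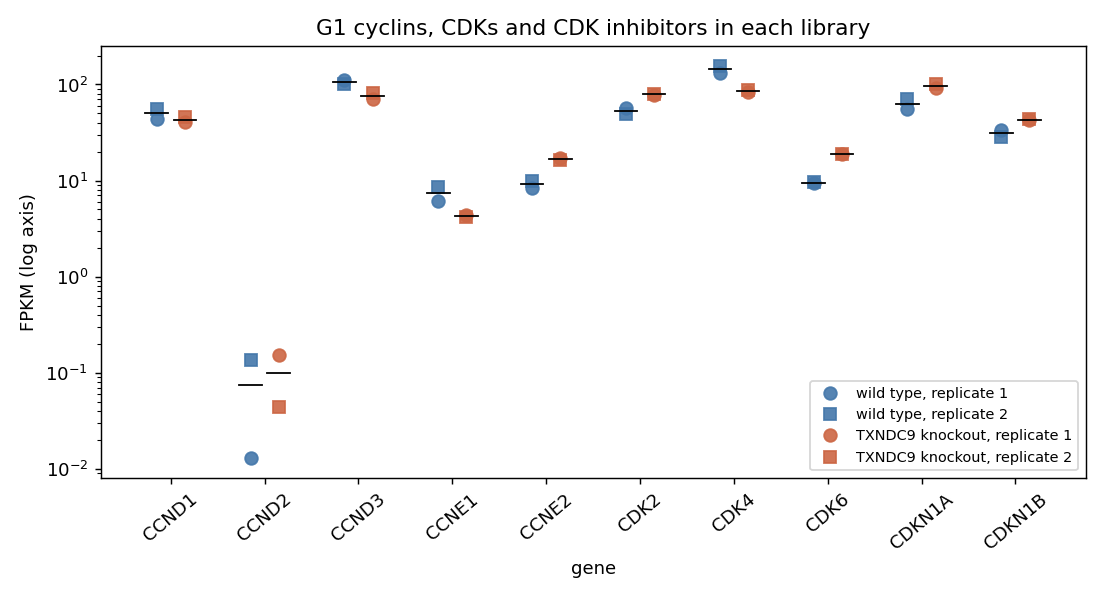
FPKM of the 10 members (log axis) in each library, with wild-type libraries in blue, knockout libraries in orange, circles for replicate 1, squares for replicate 2 and black lines for the group means. CDK6 and CCNE2 sit higher and CDK4 lower in both knockout libraries, CCND1 overlaps, and CCND2 lies below 0.2 FPKM in all 4.

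Among the D cyclins, CCND3 and CCND1 were abundant and CCND2 was close to 0. CCND3 (chromosome 6, 41934934 to 42050357, minus strand, hg38) was 110.3 and 100.3 FPKM in wild-type cells and 70.3 and 81.0 FPKM in knockout cells. The values of the groups did not overlap and the knockout was lower, but the log2 fold change of -0.48 (SE 0.12, adjusted p = 0.0162) did not pass the threshold, and it turned to 0.20 in TPM and to 0.28 after the correction for length and GC content. CCND1 (chromosome 11, 69641156 to 69654474, plus strand), the D cyclin best known as an oncogene, was 44.2 and 55.7 FPKM in wild-type cells and 40.5 and 45.7 FPKM in knockout cells. These ranges overlapped, and the log2 fold change was -0.20 with a 95% interval from -0.57 to 0.16 (adjusted p = 0.257), an interval that spans both lower and slightly higher levels. It was 0.48 in TPM and -0.42 after the correction. CCND2 (chromosome 12, 4269771 to 4305353, plus strand) was 0.0129 and 0.134 FPKM in wild-type cells and 0.153 and 0.0445 FPKM in knockout cells, and was not tested. The 3 D cyclins together summed to 154.5 and 156.1 FPKM in wild-type cells and to 111 and 126.7 FPKM in knockout cells.

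The E cyclins differed in opposite directions. CCNE2 (chromosome 8, 94879770 to 94896678, minus strand, 12 exons) was 8.43 and 9.88 FPKM in wild-type cells and 17.3 and 16.4 FPKM in knockout cells. Both knockout libraries were far above both wild-type libraries, with means of 9.16 ± 1.02 and 16.8 ± 0.682 FPKM (SD, n = 2) and a log2 fold change of 0.88 (SE 0.12, adjusted p = 0.0017). After the correction for length and GC content it was 0.49, with an adjusted p of 0.0115. CCNE1 (chromosome 19, 29811991 to 29824312, plus strand, 12 exons) was 6.14 and 8.61 FPKM in wild-type cells and 4.41 and 4.17 FPKM in knockout cells. The groups did not overlap, but the log2 fold change of -0.75 (SE 0.19, 95% interval -1.21 to -0.29, adjusted p = 0.0139) did not pass, and it was -0.08 in TPM and -0.32 after the correction (adjusted p = 0.14). CCNE2 overlaps 4 genes on the opposite strand, of which INTS8 and NDUFAF6 were the most abundant, and the use of strand in counting is not given in the sources used here. These neighbours were both lower in the knockout libraries, INTS8 at 22.8 and 25.1 FPKM against 32.5 and 38.7 FPKM, opposite in direction to CCNE2, while the other two were at or below 1.07 FPKM in every library.

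Of the 3 kinases, CDK2 and CDK6 rose and CDK4 fell, with CDK6 turning to a lower value after the correction for length and GC content. CDK4 (chromosome 12, 57747727 to 57756013, minus strand, 8 exons), a partner of the D cyclins, was 130.2 and 157.4 FPKM in wild-type cells and 84.4 and 88.2 FPKM in knockout cells. The knockout libraries were well below the wild-type libraries, with means of 143.8 ± 19.2 and 86.3 ± 2.65 FPKM (SD, n = 2) and a log2 fold change of -0.73 (SE 0.13, adjusted p = 0.00435). In TPM the difference was -0.05 (adjusted p = 0.628) and after the correction for length and GC content it was -0.26 (adjusted p = 0.0311), neither of which passed, so the fall of CDK4 depended on the scaling. CDK6 (chromosome 7, 92604921 to 92836573, minus strand, 8 exons), the other partner of the D cyclins, was 9.37 and 9.71 FPKM in wild-type cells and 19.1 and 18.7 FPKM in knockout cells. Replicates lay close to each other and the groups far apart, with a log2 fold change of 0.98 (SE 0.10, adjusted p = 7.38e-04), just under a fold of 2. Its transcript is the longest of the members, and after the correction for length and GC content its log2 fold change was -0.17 (adjusted p = 0.149). CDK2 (chromosome 12, 55966781 to 55972789, plus strand, 7 exons), the partner of the E cyclins, was 57.2 and 49.5 FPKM in wild-type cells and 78.6 and 80.1 FPKM in knockout cells. Both knockout libraries were higher, the log2 fold change was 0.58 (SE 0.12, adjusted p = 0.00641), and the correction left it at 0.77 (adjusted p = 0.00496). An unnamed gene on the opposite strand that overlaps CDK2, ENSG00000258554, was also higher, at 43.6 and 39.5 FPKM in knockout cells and 11.2 and 4.16 FPKM in wild-type cells, and its part in the CDK2 value was not tested. CDK6-AS1, which overlaps CDK6, was lower in knockout cells, at 0.135 and 0.409 FPKM against 1.90 and 2.28 FPKM.

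The promoters of CDK4 and CDK6 are shown because these kinases bind the same cyclins and differed in opposite directions in FPKM as deposited (both were below 0 after the correction for length and GC content), and because the study examined MYC, a transcription factor that binds the E-box CACGTG. RefSeq promoters (GRCh38.p14, 250 bases before to 50 bases after the start) were found for 6 of the 10 members, 9 promoters in all, and CCND1, CCND2, CCNE2 and CDK2 had no entry. The capitals mark the E-box, which reads the same on both strands, and both sequences are given in the direction of transcription, CDK4 from chr12:57752261-57752560 and the upstream promoter of CDK6 from chr7:92836524-92836823, both on the minus strand.
CDK4: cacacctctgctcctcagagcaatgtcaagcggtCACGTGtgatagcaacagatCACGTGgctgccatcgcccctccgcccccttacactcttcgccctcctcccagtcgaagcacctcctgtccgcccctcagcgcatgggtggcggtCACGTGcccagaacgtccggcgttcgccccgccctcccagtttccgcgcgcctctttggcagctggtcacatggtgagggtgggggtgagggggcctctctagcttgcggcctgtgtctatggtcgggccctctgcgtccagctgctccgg
CDK6: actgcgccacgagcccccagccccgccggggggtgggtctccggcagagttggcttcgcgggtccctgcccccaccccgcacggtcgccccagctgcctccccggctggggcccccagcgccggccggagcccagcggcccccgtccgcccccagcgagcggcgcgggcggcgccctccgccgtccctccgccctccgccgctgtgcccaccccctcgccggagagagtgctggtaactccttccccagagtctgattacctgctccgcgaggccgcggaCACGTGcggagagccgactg
The CDK4 promoter held 3 E-boxes, whose first bases lay 216, 196 and 101 bases before the start. The upstream promoter of CDK6 held 1, whose first base was base 31 when the start is counted as base 1. A second CDK6 promoter, chr7:92833910-92834209, is not shown and held 0 E-boxes and 0 GC boxes. At least 1 E-box stood in 7.26% of the 35116 promoters in the table, and 3 or more stood in 33 of them. The other 4 members with an entry held 0 E-boxes. The GC box GGGCGG, searched on both strands and overlapping no E-box, occurred 3 times in each of the promoters shown, and 45.0% of all promoters held at least 1. These are matches of letters in short windows, and binding was not measured in these libraries. In a separate assay of DNA bound by MYC (ChIP-qPCR), the study reported less binding at target genes in the knockout cells. The primers it lists for that assay include a pair for CDK4. The study also reported that MYC protein was reduced in the knockout cells and was restored by a proteasome inhibitor. Whether MYC bears on the CDK4 level was not tested here.

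Both CIP/KIP inhibitors had higher values in the knockout libraries and fell short of the threshold. CDKN1A (chromosome 6, 36676460 to 36687337, plus strand, 3 exons), the inhibitor induced by p53, was 55.9 and 70.8 FPKM in wild-type cells and 92.4 and 102 FPKM in knockout cells. The groups did not overlap, and the log2 fold change was 0.63 (SE 0.15, 95% interval 0.26 to 0.99, adjusted p = 0.0117). It was 1.31 in TPM (adjusted p = 0.000137) and 1.23 after the correction for length and GC content (adjusted p = 0.00117), and CDKN1A was the only member called in both. With median centring CDKN1A was 0.48 (adjusted p = 0.0151), short of the threshold. In TPM the median of all tested genes was itself 0.59. CDKN1B (chromosome 12, 12685498 to 12722369, plus strand, 3 exons), the inhibitor that rises in cells that leave the cycle, was 34.0 and 28.6 FPKM in wild-type cells and 42.4 and 43.9 FPKM in knockout cells. Its groups did not overlap either, with a log2 fold change of 0.47 (SE 0.12, 95% interval 0.17 to 0.77, adjusted p = 0.0160) that was 0.54 after the correction (adjusted p = 0.0169). The pair summed to 89.8 and 99.4 FPKM in wild-type cells and to 134.8 and 145.9 FPKM in knockout cells.

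A member's share of the summed FPKM of its family does not depend on the scaling of a library, although it still depends on transcript length and GC content where these bear on the values. CDK6 made up 6.71% and 5.81% of CDK4 plus CDK6 in the wild type and 18.5% and 17.5% after the knockout. CCNE2 made up 57.9% and 53.4% of the E cyclins in wild-type cells and 79.7% in each of the knockout libraries. These shares were higher in both knockout libraries by far more than replicates differed, on average by 11.7 and 24.1 percentage points. The share of CDKN1A among the inhibitors was 62.2% and 71.2% in the wild type and 68.6% and 69.9% after the knockout, which overlapped. CCND1 made up 28.6% and 35.7% of the D cyclins in the wild type and 36.5% and 36.0% after the knockout, a smaller difference that lay close to the spread of the wild-type libraries. An exact two-sided permutation test of 2 against 2 libraries cannot go below a p of 0.333, so no test of these shares is given.

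**Figure D2:**
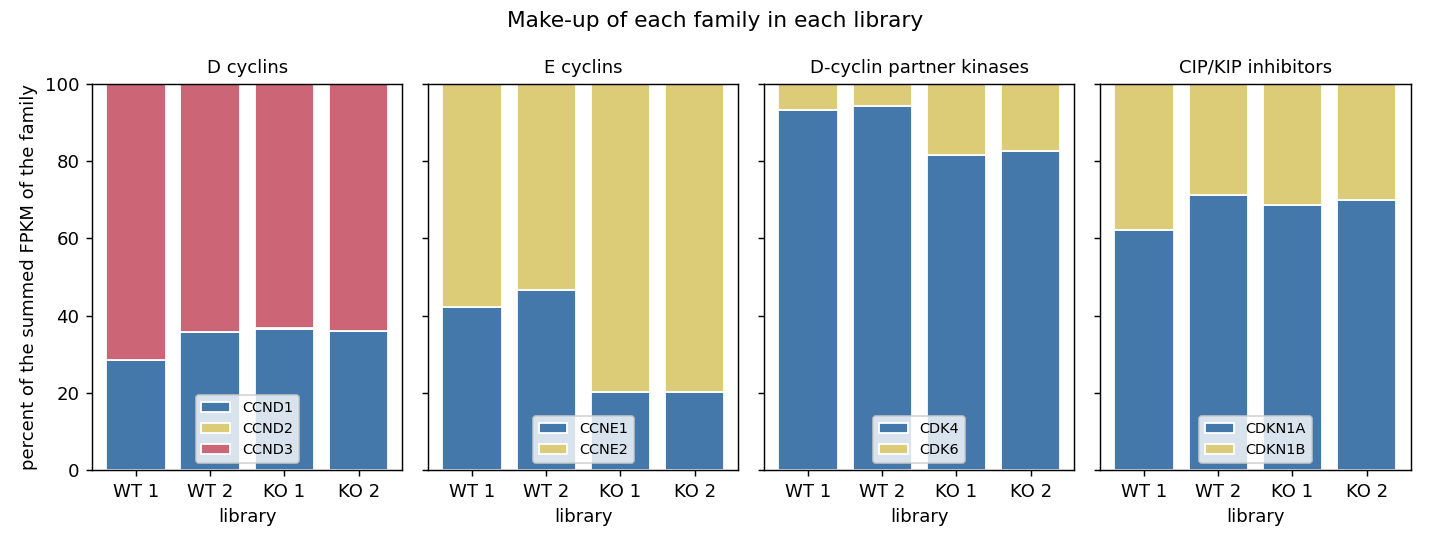
Percent of the summed FPKM of each family (D cyclins, E cyclins, CDK4 with CDK6, CIP/KIP inhibitors) that each gene made up in each of the 4 libraries, as stacked bars from 0 to 100%. The CDK6 part of its bar grows from about 6% to about 18%, and the CCNE2 part from 53.4% or 57.9% to 79.7%, while the makeup of the D cyclins and of the inhibitors changes little.

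Ratios of 2 members within a library, chosen after the values were seen, describe the same shifts. The ratio of CDK6 to CDK4 was 0.0720 and 0.0617 in the wild type and 0.226 and 0.212 after the knockout, a mean change of 3.29-fold. For CCNE2 to CCNE1 the ratio was 1.37 and 1.15 in wild-type cells and 3.93 in each knockout library. CDKN1A stood at 0.429 and 0.450 of CDK4 in the wild type and at 1.10 and 1.16 times CDK4 in knockout cells, so the inhibitor passed the kinase in both knockout libraries. After the correction for length and GC content the log2 change of these ratios was 0.09 for CDK6 to CDK4, 0.81 for CCNE2 to CCNE1 and 1.48 for CDKN1A to CDK4. The shift between the D cyclin partners was thus close to 0 after the correction, and that between CDKN1A and CDK4 was not.

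FPKM is scaled by length, so levels were ordered between genes as deposited. The fold changes still followed transcript length and GC content, and this order was not corrected for either. In wild-type cells CDK4 was highest, followed by CCND3, then by CDKN1A, CDK2 and CCND1, then CDKN1B, then CDK6, CCNE2 and CCNE1, and last CCND2. The ranges over 2 libraries overlapped between CDK2 and each of CDKN1A and CCND1, and between CCNE2 and each of CDK6 and CCNE1, while CDKN1A lay above CCND1 and CDK6 above CCNE1. In knockout cells CDKN1A came first and CDK4 next, followed by CDK2 and CCND3, which overlapped, then CCND1 and CDKN1B, which overlapped, and then CDK6, CCNE2, CCNE1 and CCND2. CDKN1A moved from the percentiles 82.3 and 83.9 of all tested genes in the wild type to 92.4 and 92.9 after the knockout. CDK4 stayed near the same rank, at percentiles 92.2 and 92.4 in the wild type and 91.5 and 91.3 after the knockout. CDK6 went from percentiles 45.8 and 45.6 to 62.3 and 60.6, and CCNE1 went from 36.0 and 42.7 to 24.9 and 23.3. These percentiles are from FPKM as deposited. After the correction for length and GC content the log2 fold change was 1.23 for CDKN1A and -0.26 for CDK4. It was -0.17 for CDK6 (limma adjusted p = 0.149) and -0.32 for CCNE1 (adjusted p = 0.14), neither of which passed.

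The members' fold changes depended on how the libraries were put on a common scale. Rescaling to TPM moved the log2 fold change of the median gene by 0.67, from -0.09 to 0.59, and the median of the 9 tested members went from 0.47 to 1.15. Relative to all genes, the members therefore stayed in the same place. After the correction for length and GC content the medians were 0.28 for the members and 0.01 for all genes. Over 13112 genes Spearman's rho between the log2 fold change and the canonical transcript length was 0.49, and with its GC content it was -0.46, as a description over genes that share the same 4 libraries. CDK6, at 11663 nt, and CDK4, at 1865 nt, were the longest and the shortest of the tested members, against a median of 2866.5 nt over the tested genes. CCNE2, at 34.6% GC, had the lowest GC content of the tested members, and CCND3, at 60.0%, the highest. The part of length and GC content in the members' values was otherwise not tested.

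**Figure D3:**
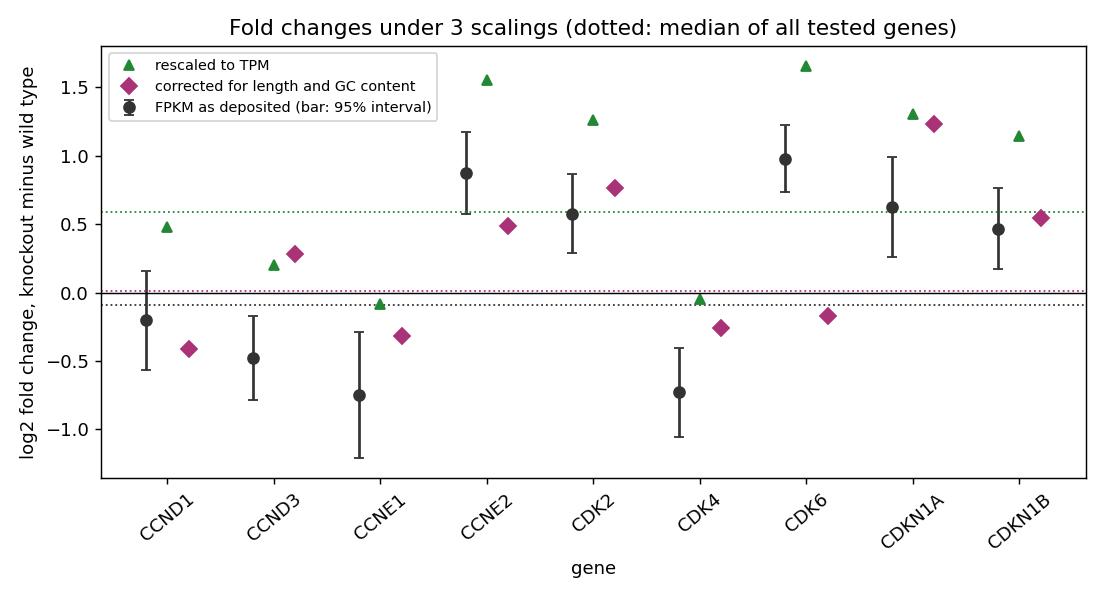
Log2 fold change (knockout minus wild type) of the 9 tested members from FPKM as deposited (circles, bars show the 95% interval), after rescaling to TPM (triangles) and after the correction for length and GC content (diamonds), with dotted lines at the median of all tested genes under each. CCNE2, CDK2, CDKN1A and CDKN1B are above 0 under all 3, CDK4 and CCNE1 are below 0 under all 3, and CCND1, CCND3 and CDK6 change sign.

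**Figure D4:**
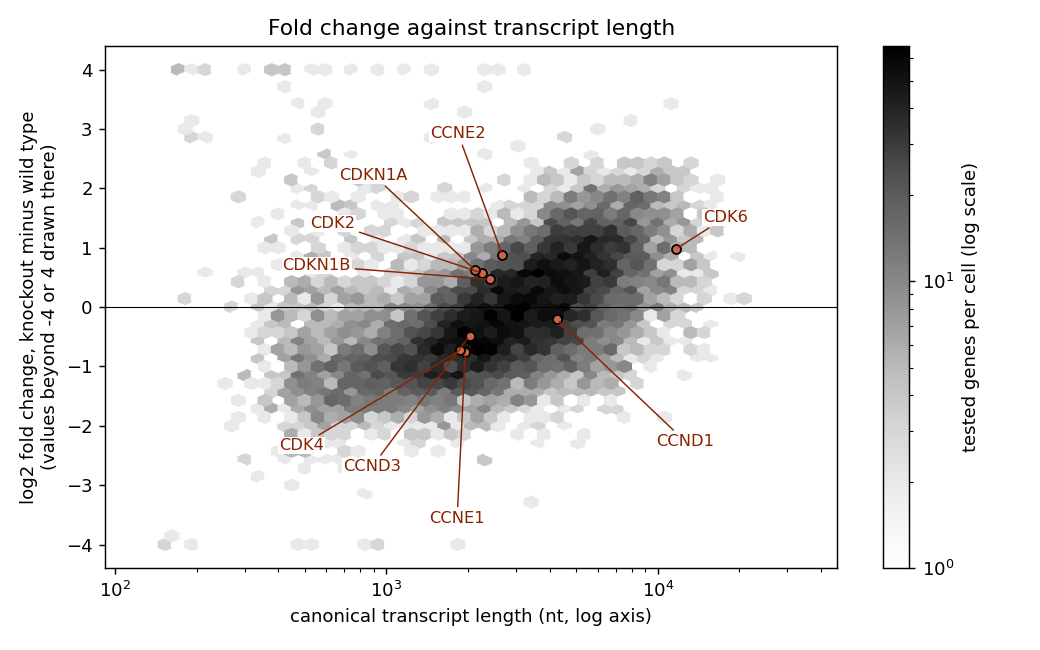
Log2 fold change (knockout minus wild type) against canonical transcript length in nt (log axis) for the tested genes, shaded by the number of genes per cell, with the members as orange points. Longer transcripts tend to have higher values, and CDK6 at 11663 nt lies at the far right.

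The genes around the members were read from 7 lists, whose counts stand against 29.5% called (14.2% higher and 15.3% lower) and 50.8% past the adjusted p at any fold over all tested genes. In the RB and E2F family, 4 of 12 tested genes were called, all higher, and at any fold 7 rose and 2 fell at an adjusted p under 0.01, and the median of the 12 log2 fold changes was 0.64. In TPM this median was 1.32, and after the correction for length and GC content it was 0.26, with 1 gene called and 4 higher and 1 lower at any fold. The called genes were the 3 pocket proteins RB1, RBL1 and RBL2, which hold E2F factors in check, and E2F7, a repressing E2F. RB1 was 6.96 and 5.46 FPKM in wild-type cells and 19.9 and 20.4 FPKM in knockout cells, with a log2 fold change of 1.70 (SE 0.14, adjusted p = 5.62e-04). Both knockout libraries were well above both of the wild type, and after the correction for length and GC content the log2 fold change of RB1 was 0.92 (adjusted p = 0.00486). RBL2 had a log2 fold change of 1.85, E2F7 of 1.68 and RBL1 of 1.14, which the correction left at 1.24, 0.96 and 0.33, the last with an adjusted p of 0.0854. E2F8, another repressing E2F, was under the filter with 0.555 and 0.526 FPKM in wild-type cells and 1.29 and 1.13 FPKM in knockout cells. The 2 that fell at any fold were E2F1 at -0.75 (adjusted p = 0.0027) and E2F4 at -0.80 (adjusted p = 0.0013). Rises short of a fold of 2 were E2F2 at 0.77 (adjusted p = 0.0038), E2F3 at 0.71 (adjusted p = 0.0034) and E2F6 at 0.58 (adjusted p = 0.0063). After the correction E2F1 stood at -0.11, E2F4 at -0.16, E2F3 at 0.20 and E2F6 at 0.35, none of which passed. E2F2 stood at 0.76 (adjusted p = 0.0052). The 1 lower gene after the correction was TFDP2, at -0.57 (adjusted p = 0.0033), against 0.27 before it.

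Among the 6 other CDK inhibitors, 3 were called, all lower, and at any fold 5 fell and 1 rose, with a median log2 value of -0.94 that the correction for length and GC content moved to -0.04, with 0 called. CDKN1C, the remaining CIP/KIP inhibitor, fell from 14.4 and 16.3 FPKM to 4.83 and 4.48 FPKM, with a log2 fold change of -1.70 (SE 0.12, adjusted p = 5.12e-04), against the higher values of its relatives CDKN1A and CDKN1B. After the correction it was -0.73 (adjusted p = 0.00382). CDKN2A, whose locus encodes an inhibitor of CDK4 and CDK6 and an activator of p53, fell from 489.8 and 569.4 FPKM to 233.7 and 223.8 FPKM, but its log2 fold change of -1.21 was -0.17 after the correction (adjusted p = 0.103). CDKN3, a phosphatase that acts on CDK2, had a log2 fold change of -1.02, which was -0.53 after the correction. The inhibitor that rose was CDKN2B, at 0.96 (adjusted p = 9.47e-04), which was 0.58 after the correction (adjusted p = 0.00693). In TPM the median of the list was -0.26, with CDKN2B called higher (1.64) and CDKN1C called lower (-1.03).

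Of 5 genes of CDK activation, 1 was called lower, and at any fold 1 rose and 3 fell, with a median of -0.44 that was 0.24 in TPM and -0.53 after the correction (0 called). The called gene was CDC37, a chaperone partner that loads kinases such as CDK4 onto HSP90, which fell from 301.3 and 359.9 FPKM to 102.9 and 109.5 FPKM (log2 fold change -1.63, SE 0.14, adjusted p = 5.62e-04) and stood at -0.73 after the correction. Of 15 genes of the turnover of G1 cyclins and inhibitors, 3 were called, all higher, and at any fold 6 rose and 1 fell, with a median of 0.11 that was -0.15 after the correction. The balance turned with the correction, to 3 higher and 4 lower at any fold. With it 1 was called higher (AMBRA1) and 1 was called lower (SKP1, a subunit of ubiquitin ligases). SKP1 stood at -1.40 (adjusted p = 0.00112), against -0.38 before the correction. The corrected value rests on a canonical transcript of 9386 nt, and which SKP1 transcript the cells expressed was not tested. The called genes before the correction were CUL4B, a scaffold of ubiquitin ligases, with a log2 fold change of 1.32, USP28, a deubiquitinase, with 1.21, and AMBRA1, an adaptor that directs D cyclins to ubiquitination, with 1.17. AMBRA1 kept nearly its whole difference under the correction, at 1.13, while USP28 went to 0.64 and CUL4B to 0.43.

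Of 12 E2F targets of the G1/S transition, 3 were called, all lower, and at any fold 1 rose and 3 fell, with a median of -0.02 that was 0.66 in TPM and -0.10 after the correction. None of the 3 was called in TPM or after the correction. TK1, thymidine kinase, fell from 246 and 300.2 FPKM to 108.2 and 116.6 FPKM, CDT1, a licensing factor of replication origins, from 87.2 and 92.8 FPKM to 38.0 and 36.8 FPKM, and MYBL2, a transcription factor of proliferating cells, from 86.3 and 92.3 FPKM to 37.3 and 41.7 FPKM. Their log2 fold changes were -1.27, -1.26 and -1.18, and -0.29, -0.49 and -0.61 after the correction, so that they stayed below 0 with folds under 2. The remaining 9 genes of the list had no call. Of the 5 tested cyclins of S, G2 and M phase with CDK1, 0 were called and 2 fell at any fold. CCNB2 had a log2 fold change of -0.64 (adjusted p = 0.0052) and CCNF of -0.53 (adjusted p = 0.00546), which were 0.04 and 0.14 in TPM. After the correction they stayed below 0, at -0.25 (adjusted p = 0.0267) and -0.42 (adjusted p = 0.0121), and did not pass. CCNA2, which is in both of the last lists, was 53.6 and 54.1 FPKM in wild-type cells and 54.9 FPKM in each knockout library.

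Among 25 other cyclins and CDKs, 8 were called higher and 1 lower, and at any fold 12 rose and 3 fell, with a median of 0.51 that was 0.25 after the correction, when 4 were called higher and 0 lower. CDK14 went from 6.36 and 4.94 FPKM to 20.9 and 21.3 FPKM, CCNG2 from 2.81 and 1.87 FPKM to 9.34 and 8.24 FPKM, and CCNK, the cyclin of CDK12 and CDK13, from 8.03 and 5.55 FPKM to 21.4 and 26.0 FPKM. These were the 3 with the largest rise, with log2 fold changes of 1.89, 1.89 and 1.81, which the correction left at 1.22, 1.12 and 1.79, CCNG2 with an adjusted p of 0.0107 that did not pass. CDK5, a kinase best known from neurons, was the gene that was called lower, from 34.9 and 39.7 FPKM to 13.5 FPKM in each knockout library (log2 fold change -1.45, SE 0.11, adjusted p = 5.38e-04). It was -0.78 in TPM and -0.53 after the correction, under a fold of 2 in both. With either knockout library left out 0 genes of the 7 lists were called.

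**Figure D5:**
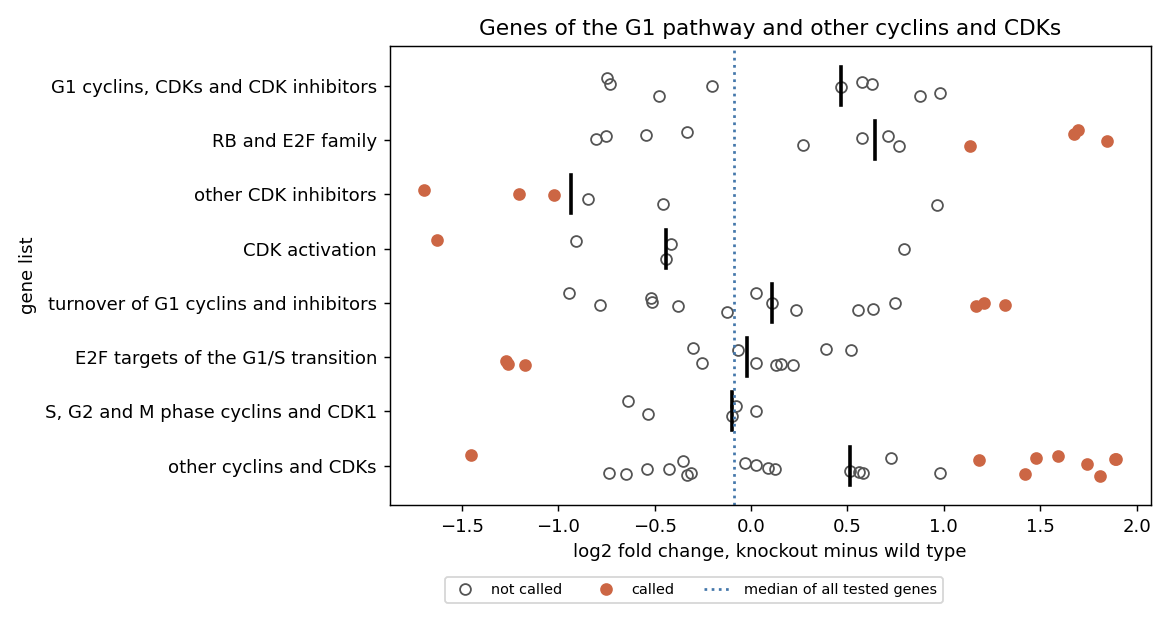
Log2 fold change (knockout minus wild type) of the tested genes of each list, with called genes filled, uncalled genes open, black bars at the list medians and a dotted line at the median of all tested genes. The 9 tested members lie between -0.75 and 0.98 with 0 called, the called genes of the RB and E2F family are higher, and the called other CDK inhibitors are lower.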

How the data were processed

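Poly(A) RNA-seq libraries of 2 wild-type and 2 TXNDC9 knockout samples were used. The authors aligned reads with TopHat2 (hg38) and quantified genes with Cuffdiff, and they deposited the resulting FPKM of each gene in each library. Tool versions, how libraries were normalized and whether strand was used are not given in the sources used here. The deposited group averages equal the mean of the 2 libraries, and the authors' columns of fold changes, p-values and q-values were not used. Identifiers were out of register with symbols in the 231916 lines, 57979 of which held values. Put back in order, 56935 were in GENCODE release 44, and all 10 members matched by symbol.

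Genes with a mean FPKM above 1 were compared on log2(FPKM + 0.1), a scale that understates changes of low genes, with limma 3.58.1 in R 4.3.3 (trend, Benjamini-Hochberg adjustment over 13246 genes, 4 libraries, no block). A call needed an adjusted p under 0.01 and a fold of at least 2. A loess curve (span 0.3) on length and GC content per library gave the correction. The steps were tested on simulated data. Other steps ran in Python 3.11.15 with numpy 2.4.6, pandas 2.3.3, matplotlib 3.10.9 and scipy 1.17.1. The depth is unknown, and the number of libraries limits the precision.

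The members and lists were chosen with earlier results of these data known. The genes named are TXNDC9, the members, the called genes of each list (with more than 6, the 3 largest falls and rises among them) and, in a list with none, the 2 with the largest change. Genes that overlap a member and the markers with the highest values were named after their values were seen. So were CCNA2, CDKN2B, E2F1, E2F2, E2F3, E2F4, E2F6, E2F8, TFDP2, SKP1 and CD68. Alternatives were other pseudocounts (1 and 0.01) and filters (none, or above 5), TPM, median centring, the correction, the replicate block, no trend, an adjusted p under 0.05 and leaving out each library.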

Additional observations from a re-analysis of the deposited data

How the results depend on the processing

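All 9 tested members kept their direction with a pseudocount of 1 or 0.01, without a filter or with a mean above 5 FPKM, with median centring, without the trend, with the replicate block and without any single library. Of 135 values of the members' fold changes under the alternatives, 91 kept their direction and side of the threshold, 20 passed it newly, 18 no longer passed it and 6 reversed. Those were CCND1 in TPM (0.48), CCND3 in TPM (0.20) and with the correction for length and GC content (0.28 with or without the block), and CDK6 with the correction (-0.17 with or without the block). The cause was not tested. The number of members past an adjusted p of 0.01, 4 as reported, was 2 without a filter, without the trend and with the correction (2 also with the block added), 8 with an adjusted p under 0.05, and 0 to 7 without 1 library. Members called, 0 as reported, were 5 in TPM (CCNE2, CDK2, CDK6, CDKN1A and CDKN1B), 1 with the correction (CDKN1A, with or without the block) and 0 to 1 without 1 library (CDK6 without wild-type replicate 2).

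Same-numbered libraries did not deviate together (correlation across genes -0.09), so the replicate numbers were not taken as pairs. With the replicate block 8 members passed, among them CCND3 (-0.48), CCNE1, CDKN1A and CDKN1B. TXNDC9 had a log2 fold change of 0.12 in TPM, and it passed the threshold with a mean above 5 FPKM, with the block and with an adjusted p under 0.05 (-0.55 in each) and with median centring (-0.70).

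Genes called, 3906 as reported, were 1731 with the correction (1723 with the block) and 0 to 4821 without 1 library. Those higher, 1885 as reported, were 1220 with a mean above 5 FPKM, 4380 in TPM, 914 with the correction (903 with the block) and 0 to 2194 without 1 library. Those lower, 2021 as reported, were 447 in TPM, 817 with the correction (820 with the block) and 0 to 2627 without 1 library. The higher share of calls, 48.3% as reported, was 90.7% in TPM, 35.8% with median centring and 45.5% to 100% without 1 library. The list genes called, 23 as reported, were 7 with the correction (8 with the block) and 0 to 28 without 1 library. Without a knockout library the lone library is assumed to vary like the other group, and 0 or 1 gene was called in all. With unknown depth, the low values of CCND2 and E2F8 cannot be weighed against counting error.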
